A study of Mus musculus with 32 samples.

Results

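The 8 mouse hearts described here come from the longer exposure with the shorter rest: 10 consecutive days of social defeat followed by 1 day of rest (T10R1). They were chosen by the sample titles, and they are 8 of the 32 hearts of the series, 4 stressed and 4 control. All were C57BL/6 mice, each array held RNA of 1 heart, and age and sex are not given in the sources used here. A stressed mouse spent 6 hours of each day in a wire mesh box within an aggressor's cage and met that aggressor directly in bouts that lasted no longer than 2 min and included bites. A control mouse sat in the same kind of box in a large cage that held no aggressor. The daily hour of exposure varied, and the hour at which hearts were taken is not given. The other conditions had the same 2 arms with 4 hearts each, and their own controls: 5 days with 1 day of rest (T5R1), 5 days with 10 days of rest (T5R10) and 10 days with 42 days of rest (T10R42). The series simulates posttraumatic stress disorder, and its design asks how the length of the exposure and of the rest bears on gene expression in the heart.

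Social defeat is a laboratory model in which a subordinate mouse is repeatedly attacked by a dominant one, with activation of the sympathetic nervous system and of glucocorticoid secretion. In the heart, sustained adrenergic or mechanical load is known to raise the fetal program of the heart muscle cell, in which the slow beta-myosin heavy chain Myh7 and skeletal alpha-actin Acta1 are made in the adult ventricle. Load is also known to turn resident fibroblasts into producers of collagen and of the glycoproteins that surround it.

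RNA was measured on 1-colour Agilent arrays. A level below is the log2 of a probe's background-subtracted signal minus the 75th percentile of that array, so 1 unit is a doubling and 0 is the level of a fairly bright probe. Changes are stressed minus control on that scale with their standard error (SE), and a gene is called when the adjusted p of limma, fitted over all 32 arrays and 27517 genes, was below 0.05. The p-values rest on the spread between individual animals within each group, pooled over all 32 arrays, and not on that of the 8 T10R1 hearts alone. The 75th percentile of the signal was 327.2 to 448 in the control arrays and 365.5 to 433.7 in the stressed arrays (exact permutation test, two-sided, n = 4 per arm, p = 0.857). Between 31605 and 37307 probes were well above background. The added spike-in RNA lay 3.30 to 3.63 log2 units above the percentile in controls and 3.62 to 3.73 in stressed arrays (exact permutation p = 0.0571, where the smallest possible is 0.0286). Arrays correlated at 0.9873 to 0.9939 within an arm and 0.9846 to 0.9925 between arms, and control 3 stood apart on the first 2 principal components, which held 23.2% and 18.5% of the variance. Controls were in columns 1 and 2 of the slide and stressed hearts in columns 3 and 4, so array column and arm cannot be told apart. All 9 heart muscle markers examined, Myh6 and Tnnt2 among them, were well above background on all 8 arrays. The lung marker Sftpc was above background in 0 control and 1 stressed heart, the airway marker Scgb1a1 in 4 of 4 hearts of each arm (levels of -3.74 to -2.22), and Rag1, a gene of developing lymphocytes, in none of the 8.

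In the T10R1 hearts, 213 genes rose (0.774% of the 27517 tested) and 99 fell (0.36%), and the median change of all genes was 1e-04. The genes that rose were led by collagens, matrix glycoproteins and Myh7, and those that fell included mitochondrial enzymes of acetyl-CoA and branched-chain amino acid oxidation, Cyp1a1 and glutathione transferases. Changes of at least 2-fold were made by 69 of the 213 and 12 of the 99. The 4 stressed hearts did not overlap with the 4 controls for 200 of the 213 and 94 of the 99, against 2689 of all 27517 genes. The called genes were chosen by the difference between these same hearts, so their lack of overlap is not separate support. At an unadjusted p below 0.05 there were 1748 higher and 1861 lower genes. These counts depend on single animals: leaving out 1 heart gave 68 higher and 18 lower without stressed 1, 112 and 34 without stressed 4, 102 and 21 without control 1, 93 and 23 without control 2, 134 and 51 without control 3, and 118 and 58 without control 4. Without stressed 3 there were 179 and 57. A limma fit of the 8 T10R1 arrays alone, which has 6 residual degrees of freedom in place of 24, called 4 genes higher (among them the matrix genes Srpx and Adamtsl2) and 0 lower, with 1895 and 1889 at an unadjusted p below 0.05, and all 312 called genes were among the latter.

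The hearts of stressed mice had more RNA of extracellular matrix genes. The collagen, glycoprotein, collagen-processing and fibroblast lists together held 153 tested genes, of which 50 rose and 0 fell. The arms did not overlap for any of the 50, which is not separate support, since the 50 were chosen by that difference. Those 50 were 23.5% of all genes that rose. Whole heart RNA is a mixture, so more fibroblasts and more RNA per fibroblast cannot be told apart.

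Among the collagens, 11 of 29 tested rose and 0 fell, with a median change of 0.62. Col1a1, a chain of the main fibrillar collagen of the heart (probe at chr11:94813115-94813174, mm9), had levels of 3.27, 3.07, 3.12 and 3.11 in controls 1 to 4 and 5.56, 4.72, 4.46 and 5.85 in stressed 1 to 4. All stressed hearts were above all controls, stressed 4 and stressed 1 highest, and the rise was 2.01 ± 0.30 (SE; 4.02-fold; limma adjusted p = 0.000747). Col3a1, the fibrillar collagen of stretchy tissue, stood at 3.68, 3.32, 3.41 and 3.49 against 6.45, 5.27, 4.89 and 6.44, a rise of 2.29 ± 0.32 (4.88-fold; limma adjusted p = 0.000382). Its arms did not overlap either, and stressed 1 and 4 were again the highest. Col1a2, the partner chain of Col1a1, rose by 1.40 ± 0.22, and Col6a2, a chain of the beaded filaments around cells, by 1.14 ± 0.16. Col8a2, a short-chain collagen, rose by 1.88 ± 0.47 (limma adjusted p = 0.0434), but its 2 probes differed, with changes of 0.33 and 1.88. Its call was lost without stressed 1 (adjusted p = 0.2), stressed 4 (0.166) or any 1 control (0.0767 to 0.11). The number of collagens called was 5 without stressed 1, 7 without stressed 4 or control 2, and 8 to 12 without any other single heart.

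Of the matrix glycoproteins and proteoglycans, 28 of 63 rose and 0 fell, with a median change of 0.49. Cilp, a matrix protein of cardiac fibroblasts (probe at chr9:65128007-65128066, mm9), stood at -0.12, -0.27, -0.14 and -0.58 in the controls and at 3.06, 2.07, 1.41 and 3.11 in the stressed hearts. The lowest stressed heart, stressed 3, was still above every control, and the rise was 2.69 ± 0.32 (6.46-fold; limma adjusted p = 4.4e-05). Ltbp2, which binds fibrillin microfibrils, had levels of 1.29, 1.30, 1.47 and 1.16 against 4.05, 2.86, 2.52 and 4.22 and rose by 2.11 ± 0.34. Postn, the periostin of activated fibroblasts, had levels of 1.81, 1.86, 2.08 and 1.61 against 4.79, 3.27, 2.78 and 4.70. Its arms did not overlap, and it rose by 2.05 ± 0.42 (limma adjusted p = 0.0149), a call that was lost without stressed 1 (adjusted p = 0.0792) or stressed 4 (0.0659). Cthrc1, also a gene of activated fibroblasts, was not well above background in any control, and its stressed levels were -0.88, -3.15, -4.11 and -0.75. Set against the lowest signal measured above background on each control array, it was at least 8.43-fold higher (limma adjusted p = 0.0202), and it was not called without stressed 1 (0.102), stressed 4 (0.0911), control 1 (0.0537) or control 4 (0.0736). Mfap4 and Mfap5, which belong to elastic microfibrils, rose by 1.69 ± 0.22 and 1.10 ± 0.20, and Comp, a pentameric thrombospondin, by 1.21 ± 0.22. The number of glycoproteins called was 13 without stressed 4, 14 without stressed 1, 16 or 17 without control 1, 2 or 4, and 22 to 26 without any other single heart.

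Enzymes that shape and crosslink collagen rose in part: 5 of 27 were called higher and 0 lower, with a median of 0.16. Adamts2, which removes the amino-terminal propeptide of fibrillar collagens, had control levels of 2.85, 2.72, 2.84 and 2.86 and stressed levels of 4.26, 3.82, 3.68 and 4.28, a rise of 1.19 ± 0.17 (limma adjusted p = 0.000382). The lysyl oxidase-like enzymes Loxl2 (1.14 ± 0.21 by its brightest probe, 0.17 to 1.14 over its 4 probes) and Loxl1 (0.91 ± 0.17) rose, as did Loxl3 (0.82 ± 0.19), whose call was lost without stressed 1 (adjusted p = 0.0861), stressed 4 (0.115) or any 1 control (0.0508 to 0.0836). Of 32 matrix proteases and inhibitors only the gelatinase Mmp2 was called, at 1.57, 1.38, 1.5 and 1.61 in controls and 2.97, 2.65, 2.36 and 3.38 in stressed hearts. Its rise was 1.33 ± 0.20 (limma adjusted p = 0.000672), and the median of the list was 0.10. Without stressed 1 or stressed 4 the enzymes called numbered 3.

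**Figure D1:**
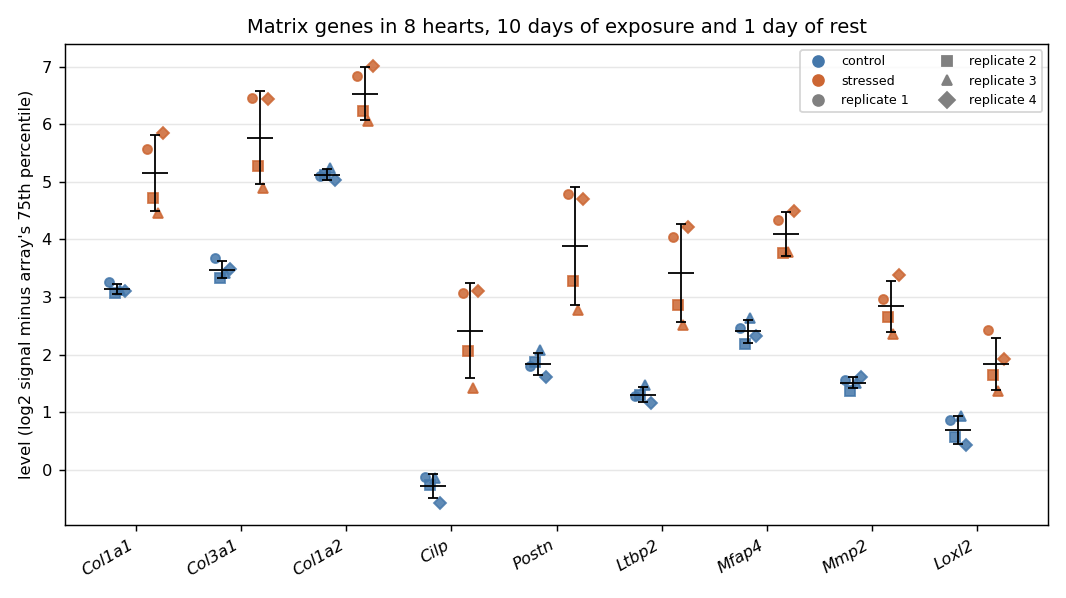
Levels of 9 matrix genes in each of the 8 hearts, on the vertical axis in log2 signal minus the array's 75th percentile; blue points are controls, orange points stressed hearts, marker shapes the replicate numbers, and black bars the mean ± SD. For every gene drawn the stressed points lie above the control points, and replicates 1 and 4 of the stressed hearts are mostly the highest.

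The size of the matrix response differed between the 4 stressed hearts. Of the 50 matrix genes that rose, stressed 4 was the highest of its arm for 32, stressed 1 for 17 and stressed 3 for 1, and the lowest was stressed 3 for 33, stressed 2 for 15 and stressed 1 for 2. Averaged over the 29 collagens, stressed 1 and 4 lay 1.06 and 1.01 above the control mean, and stressed 2 and 3 lay 0.56 and 0.53 above it. The controls ranged from -0.06 to 0.11.

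The TGF-beta pathway, which drives collagen synthesis in fibroblasts, had 2 of 40 members called higher and 0 lower, with a median change of 0.08. Tgfb3, one of its ligands, had control levels of 2.16, 2.17, 2.46 and 2.12 and stressed levels of 3.07, 2.73, 2.66 and 3.20, and rose by 0.69 ± 0.16 (limma adjusted p = 0.0371). Fstl1, a secreted glycoprotein of the follistatin family, rose by 0.94 ± 0.21 (limma adjusted p = 0.0205). Neither was called without stressed 1 (0.14 and 0.105) or stressed 4 (0.143 and 0.0778), nor without control 1, 2 or 4 (0.0584 to 0.102).

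The fibroblast and myofibroblast list had 10 of 39 members called higher, 0 lower and a median of 0.19. Ccn5, a matricellular protein of that list, stood at 0.68, 0.42, 0.22 and 0.14 in controls and 1.68, 1.38, 1.55 and 1.78 in stressed hearts. The stressed hearts lay close together and clear of the controls, and the rise was 1.23 ± 0.15 (limma adjusted p = 4.4e-05). Ptn, a heparin-binding growth factor, rose by 2.01 ± 0.34. Sfrp2, a secreted Wnt modulator, rose by 1.60 ± 0.32 (limma adjusted p = 0.0111) and was not called without stressed 1 (0.0626) or stressed 4 (0.0532).

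Few heart muscle genes were called. Of 41 cardiac stress and fetal genes 3 rose and 1 fell, with a median of -0.05 (1 called higher without stressed 1). At an unadjusted limma p below 0.05, 9 of that list were higher and 5 lower. The mean of the list lay 0.27 above the control mean in control 3, the highest control. Of 44 sarcomere and Z-disc genes limma called 0 in either direction, with a median of -0.10. At an unadjusted p below 0.05, 0 of these were higher and 8 lower. Myh7, Acta1, Mybpc2 and Tnnt1, which also encode sarcomere proteins, were counted in the cardiac stress list and not among the 44. Promoters are printed for the 2 called genes of the fetal program with the largest rise and for Col3a1, since each holds the MCAT motif, the binding site of TEAD factors in muscle genes. The sequences are the 250 bases before the most upstream annotated start of the gene, 5′ to 3′ on the gene's strand, from RefSeq (GRCm38.p6). MCAT (CATTCC, or GGAATG on the other strand) alone is in capitals.
Myh7, chr14:54994627-54994876, minus strand: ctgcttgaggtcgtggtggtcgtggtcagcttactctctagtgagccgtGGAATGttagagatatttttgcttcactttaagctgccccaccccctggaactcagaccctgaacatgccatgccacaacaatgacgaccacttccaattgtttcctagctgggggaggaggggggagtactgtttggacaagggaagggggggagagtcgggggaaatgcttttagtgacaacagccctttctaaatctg
Acta1, chr8:123894776-123895025, minus strand: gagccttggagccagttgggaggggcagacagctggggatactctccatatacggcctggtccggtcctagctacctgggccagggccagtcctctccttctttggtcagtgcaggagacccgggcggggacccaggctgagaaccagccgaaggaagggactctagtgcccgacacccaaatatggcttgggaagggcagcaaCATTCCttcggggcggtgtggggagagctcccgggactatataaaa
Col3a1, chr1:45311288-45311537, plus strand: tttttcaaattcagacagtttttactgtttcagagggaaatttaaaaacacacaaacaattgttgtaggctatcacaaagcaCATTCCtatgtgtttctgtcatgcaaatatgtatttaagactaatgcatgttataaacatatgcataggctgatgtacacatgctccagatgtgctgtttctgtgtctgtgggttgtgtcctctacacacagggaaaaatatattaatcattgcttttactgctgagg
The motif begins 201, 46 and 168 bases before the start in these promoters. On either strand it occurs in 12.6% of 27025 such windows and in 11.3% of the 13586 windows of tested genes. It occurs in 28 of the 137 genes that rose and had a window (20.4%) and in 9 of 36 cardiac stress and fetal genes (25%). For the matrix genes of the lists above the share is 10.7%. A match is a description of letters, not of binding.

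Myh7 (probe at chr14:55589581-55589640, mm9) had levels of 4.58, 4.84, 4.80 and 4.52 in the controls and 8.0, 7.46, 6.24 and 7.95 in the stressed hearts. Every stressed heart was above every control, with stressed 3 the lowest of its arm, and the rise was 2.73 ± 0.39 (6.63-fold; limma adjusted p = 0.000382). Acta1 had levels of 4.45, 4.52, 4.85 and 4.18 against 6.08, 6.32, 6.14 and 4.99, with stressed 4 only just above control 3. Its rise was 1.38 ± 0.28 (2.61-fold; limma adjusted p = 0.0128), and without stressed 1 the adjusted p was 0.0572. Mybpc2, the fast skeletal myosin-binding protein, rose by 0.56 ± 0.13 and lost its call without any 1 heart other than stressed 2 (0.0578 to 0.118).

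The adult alpha-myosin heavy chain Myh6 stood at 9.97 to 10.31 in controls and 9.77 to 10.17 in stressed hearts. The arms overlapped, the change was -0.19 ± 0.13 (limma adjusted p = 0.584), and its 2 probes gave changes of -0.19 and 0.01. Nppa, the atrial natriuretic peptide, was 9.33, 9.21, 8.72 and 9.38 in controls and 9.84, 9.48, 9.55 and 8.77 in stressed hearts. Its change was 0.25 ± 0.25 (limma adjusted p = 0.728). Nppb, the B-type peptide, was 5.09, 4.75, 6.53 and 4.91 against 6.02, 5.05, 4.88 and 4.43, with control 3 the highest heart, and its change was -0.22 ± 0.36 (limma adjusted p = 0.847). Neither peptide passed the test, and both overlapped between the arms. For Nppa the overlap came from stressed 4 alone, and the other stressed hearts were above every control. Stressed 4 also had the lowest mean of the atrial list (-1.20). The part of atrial tissue in the Nppa values was not tested.

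Around the natriuretic and angiotensin systems, Ace, the converting enzyme of angiotensin, had levels of 0.56, 0.60, 0.53 and 0.23 against 0.90, 0.96, 1.10 and 1.28 and rose by 0.58 ± 0.11 (limma adjusted p = 0.0064). Corin, the protease that activates the atrial peptide, had levels of 2.73, 2.88, 2.68 and 2.79 against 2.19, 2.48, 2.33 and 2.49 and fell by 0.39 (SE 0.10; limma adjusted p = 0.0381). The fall of Corin passed the threshold only with all hearts or without stressed 2, and the adjusted p was 0.0507 to 0.172 without any other heart. Tnnt1, slow skeletal troponin T, fell by 0.39 (SE 0.10; limma adjusted p = 0.0405), with an adjusted p of 0.0919 to 0.148 without stressed 1, stressed 4 or control 1, 2 or 3. Of 65 genes of calcium cycling, channels and adrenergic signalling 1 rose and 1 fell, with a median of -0.13. The one that fell was Kcna4, a channel of the transient outward potassium current, at 3.44, 3.26, 3.42 and 3.38 against 3.08, 3.23, 2.44 and 2.74 (-0.50 ± 0.12; limma adjusted p = 0.0436; lost without any heart but stressed 2, 0.0583 to 0.158).

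**Figure D2:**
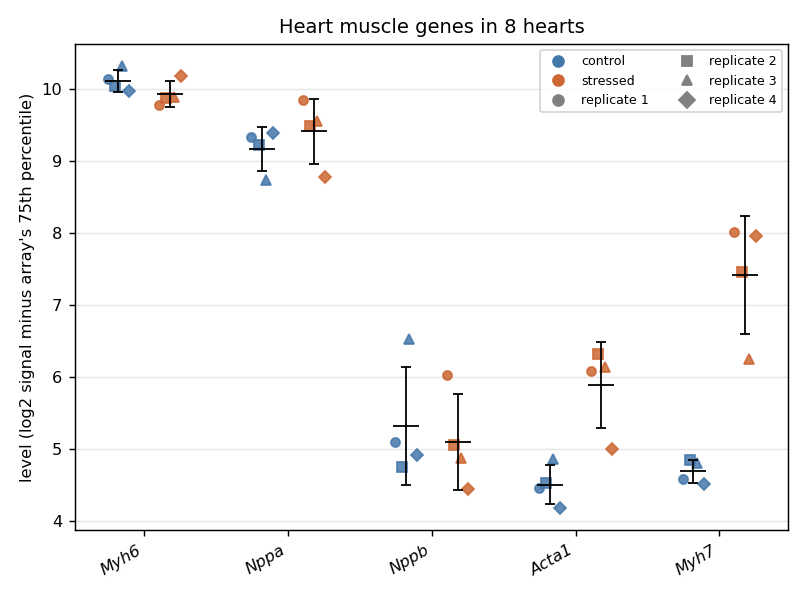
Levels of 5 heart muscle genes in each of the 8 hearts, in log2 signal minus the array's 75th percentile; blue points are controls, orange points stressed hearts, marker shapes the replicate numbers, and black bars the mean ± SD. Myh7 and Acta1 are separate between the arms, while Myh6, Nppa and Nppb overlap.

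A few genes of cell division rose, and 1 stressed heart was the highest for each of them. Of 70 mitosis and spindle genes 5 rose and 0 fell, 61 were measured higher, and 43 were higher and 3 lower at an unadjusted p below 0.05, with a median of 0.65 (0.61 with genes below background set at their bounds), and of 40 core histones 6 rose and 0 fell (13 higher and 0 lower unadjusted), with a median of 0.20. The promoters of Ccnb2, the B-type cyclin of mitosis, and Cdca8, a subunit of the chromosomal passenger complex, are printed because both genes rose and because cell cycle promoters are known for the CHR motif, read TTTGAA on one strand and TTCAAA on the other, and for the CCAAT box, which reads ATTGG on the other strand. Both are in capitals in the 250 bases before each start (RefSeq, GRCm38.p6, gene strand).
Ccnb2, chr9:70421555-70421804, minus strand: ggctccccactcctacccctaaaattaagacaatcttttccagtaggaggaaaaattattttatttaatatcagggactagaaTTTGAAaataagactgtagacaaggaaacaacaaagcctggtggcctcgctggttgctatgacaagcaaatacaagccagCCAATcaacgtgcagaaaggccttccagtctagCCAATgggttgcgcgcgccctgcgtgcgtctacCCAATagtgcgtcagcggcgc
Cdca8, chr4:124936918-124937167, minus strand: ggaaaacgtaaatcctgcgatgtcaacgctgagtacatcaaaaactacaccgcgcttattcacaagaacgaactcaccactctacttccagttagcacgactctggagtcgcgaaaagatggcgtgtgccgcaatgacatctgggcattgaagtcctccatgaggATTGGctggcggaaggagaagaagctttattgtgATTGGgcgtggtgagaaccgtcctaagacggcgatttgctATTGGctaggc
Ccnb2 holds 1 CHR and 3 CCAAT motifs and Cdca8 holds 0 and 3. In windows of that length, CHR occurred in 37.3% and CCAAT in 71.2% of the 59 mitosis genes with a window, against 16.3% and 34.5% of all 27025. Over the 13586 tested genes with a window the shares were 12% and 35.9%.

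Ccnb2 had control levels of -2.16, -2.28, -1.51 and -1.77 and stressed levels of 0.27, -0.91, -0.94 and -1.69, so stressed 4 overlapped the controls and stressed 1 was clear of them. The rise was 1.12 ± 0.25 (limma adjusted p = 0.0251). Cdca8 had levels of -2.32, -1.71, -1.43 and -1.82 against -0.08, -0.87, -1.0 and -1.59, an overlap of stressed 4 with the controls, and rose by 0.94 ± 0.22 (limma adjusted p = 0.03). Nuf2, a kinetochore protein, was not well above background in any control and was at least 2.05-fold higher in stressed hearts (limma adjusted p = 0.0418). In the 5 mitosis genes called, stressed 1 was the highest and stressed 4 the lowest stressed heart, and the same order held for the 6 histones called. The mean of the mitosis list lay 1.33 above the control mean in stressed 1, 0.53 in stressed 2, 0.46 in stressed 3 and 0.05 in stressed 4. The mean of the red cell markers lay at 1.21, 0.53, 0.17 and 0.02 in the same hearts, and its part in the mitosis values was not tested. Without stressed 1, 0 mitosis genes and 0 histones were called. Without stressed 4, 19 mitosis genes were called higher and 1 lower. Leaving out control 1 or 2 also left 0 mitosis genes called, and leaving out stressed 2, stressed 3 or control 4 left 1 or 2. The histones called were 0 without control 1 and 3 without control 2 or 4. Ccnb2 was not called without stressed 1, control 1 or control 2 (adjusted p 0.0879 to 0.102), Cdca8 without those, stressed 2 or control 4 (0.0532 to 0.147), and Nuf2 without any 1 heart other than stressed 4 (0.0572 to 0.206).

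Among the histones, H2ac4 had levels of -0.50, -0.38, 0.05 and -0.06 against 1.76, 0.96, 0.55 and 0.06 and rose by 1.05 ± 0.26 (limma adjusted p = 0.0434). H2ac11 and H2ac22 rose by 0.63 ± 0.14 and 0.57 ± 0.12. Histone genes have near-identical copies, so their probes may not tell them apart. H2ac11 lost its call without stressed 1, control 1 or control 2 (0.0521 to 0.0964) and H2ac22 without stressed 1 or control 1 (0.0543 to 0.074). H2ac4 lost its call without stressed 1 (0.215) and without stressed 2 (0.0844), stressed 3 (0.0502), or any 1 control (0.0568 to 0.139).

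Some genes of mitochondrial fuel oxidation fell, by small amounts. In the list of the TCA cycle, amino acid and ketone oxidation, 7 of 43 genes fell and 0 rose, all 43 were measured lower, and the median change was -0.25. Of all 27517 genes 13753 were measured lower. A lean to lower values was not particular to fuel oxidation. It was also seen in 38 of 39 proteasome subunits and 71 of 75 mitochondrial ribosomal proteins, but in only 36 of 69 cytosolic ribosomal proteins. Acat1, the acetyl-CoA acetyltransferase of ketone and isoleucine breakdown, had levels of 5.68, 5.79, 5.87 and 5.78 in controls and 4.30, 5.50, 5.41 and 5.28 in stressed hearts. The arms did not overlap and stressed 1 was the lowest, with a change of -0.66 ± 0.16 (limma adjusted p = 0.0363). Ppm1k, the phosphatase that activates the branched-chain ketoacid dehydrogenase, stood at 2.39, 2.47, 1.94 and 2.42 against 1.73, 1.91, 1.58 and 1.84, and fell by 0.54 (SE 0.12; limma adjusted p = 0.0202). Bckdhb, a subunit of that same dehydrogenase, fell by 0.36 (SE 0.09), and Dlat, the acetyltransferase of the pyruvate dehydrogenase complex, fell by 0.40 (SE 0.09). Acat1, Ppm1k, Bckdhb and Dlat each lost their calls without stressed 1, control 1 or control 2 (0.0662 to 0.124). Acat1 also lost its call without stressed 4, control 3 or control 4 (0.0579 to 0.0935). Bckdhb lost its call also without stressed 3, stressed 4 or control 4 (0.0596 to 0.0909). The same held for Dlat without stressed 3 or 4 (0.053 and 0.0724), and for Ppm1k without stressed 3 or control 4 (0.0666 and 0.0656). The 7 calls became 0 without stressed 1, control 1 or control 2, 1 without stressed 3 or control 4, and 2 without stressed 4.

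Of 58 genes of fatty acid uptake and oxidation 2 fell, 0 rose and 53 were measured lower (median -0.20); 1 to 4 were called lower without a single heart. They were Acad11, an acyl-CoA dehydrogenase, at 5.48, 5.53, 5.38 and 5.29 against 4.97, 5.14, 5.05 and 4.98 (-0.39 ± 0.07; limma adjusted p = 0.0097), and Echs1, the short-chain enoyl-CoA hydratase (-0.37 ± 0.09). Of 78 oxidative phosphorylation genes 0 were called by limma, with 76 measured lower, 25 lower and 0 higher at an unadjusted p below 0.05, and a median of -0.16. Uqcrc1, a core subunit of complex III, was at 6.8, 6.84, 6.73 and 6.71 against 6.46, 6.32, 6.53 and 6.54 (-0.31 ± 0.08; limma adjusted p = 0.0639). Among other mitochondrial genes, Mrpl50, a ribosomal protein, fell by 0.35 (SE 0.08), and Hspa9, the matrix chaperone, by 0.34 (SE 0.07). In the glycolysis list 1 of 40 fell and 0 rose. It was Pfkfb1, a regulator of phosphofructokinase, at 2.54, 2.74, 2.77 and 2.53 against 1.44, 2.04, 1.79 and 1.98 (-0.83 ± 0.18; limma adjusted p = 0.0228), which lost its call without stressed 1 (0.117), control 2 (0.0688) or control 3 (0.0665). Acad11 kept its call without each single heart (0.00809 to 0.0491). Echs1, Mrpl50 and Hspa9 lost theirs without stressed 1 or 4 or control 1, 2 or 4 (0.0569 to 0.164), and Echs1 and Hspa9 also without stressed 3 and Echs1 without control 3 (0.0635 to 0.075).

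**Figure D3:**
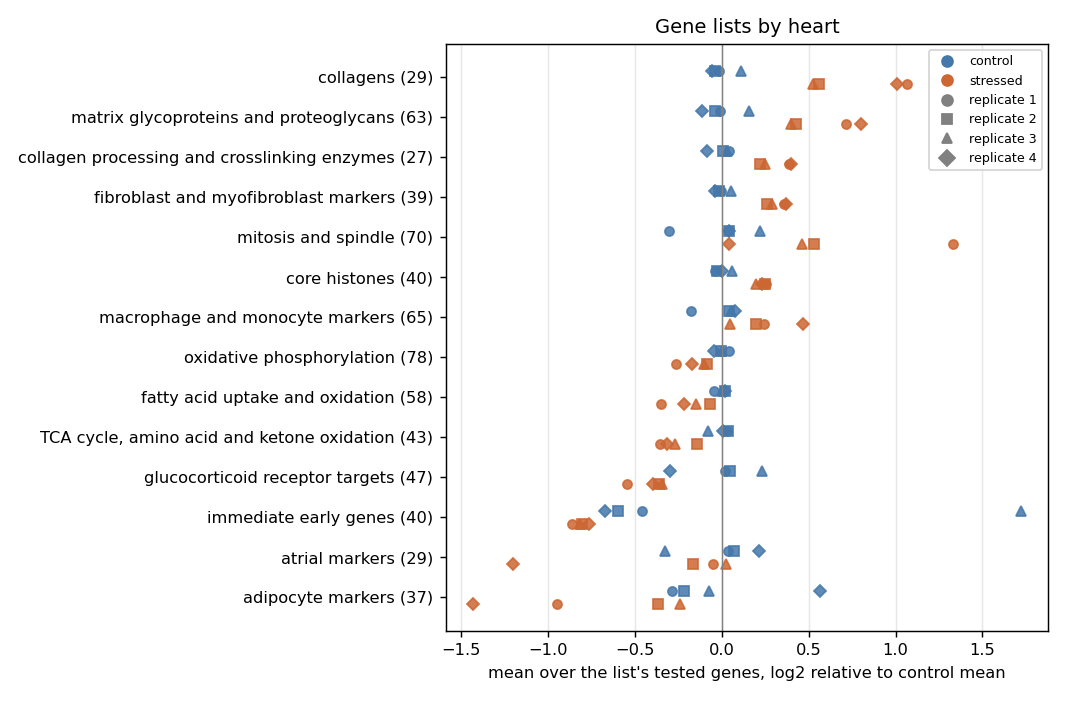
Mean level over the tested genes of 14 gene lists in each heart, on the horizontal axis in log2 units relative to the control mean, with the number of genes in brackets; blue points are controls, orange points stressed hearts, marker shapes the replicate numbers. Collagens lie at 0.53 to 1.06 in the stressed hearts, the mitosis list reaches 1.33 in stressed 1 alone, and the immediate early list is 1.72 in control 3.

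A few genes of xenobiotic defence fell. Cyp1a1, the main target of the aryl hydrocarbon receptor, had levels of 1.75, 0.52, 0.32 and 1.02 in controls and -0.64, -0.22, -0.28 and -0.43 in stressed hearts. The controls were widely spread but none reached the stressed range, and the change was -1.30 ± 0.29 (limma adjusted p = 0.0228; 0.0947 without stressed 1, 0.0655 without stressed 4, 0.105 without control 1 and 0.0614 without control 4). Tiparp, another target of that receptor, fell by 0.41 (SE 0.10) and was not called without any 1 heart other than control 4. Gsta2, a glutathione transferase, stood at 1.31, 1.61, 1.36 and 1.02 against -0.28, 0.69, 0.77 and 0.62, and fell by 0.87 (SE 0.17; limma adjusted p = 0.0114). Gsta1 fell by 0.82 (SE 0.20), and the Gsta genes are close paralogs whose probes may share signal. Of the 58 antioxidant genes 3 fell and 1 rose, with a median of -0.13 (0 fell without stressed 1, stressed 4 or control 1, and 1 without control 2 or 3). Gsta1 was not called without stressed 1, stressed 4, control 1, control 2 or control 3 (0.0742 to 0.176), and Gsta2 not without control 2 (0.054). Fas, a death receptor on the apoptosis list, fell by 0.53 (SE 0.13) and was the only member called of 45, though not without stressed 1, stressed 2 or control 1, 2 or 3 (0.0628 to 0.19).

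Among the largest falls were genes of unclear role in heart, each but Gm7628 with arms that did not overlap. The non-coding 2310016G11Rik stood at -1.61, -1.97, -0.55 and -2.00 against -2.96, -2.82, -2.80 and -2.72 (-1.29 ± 0.22; limma adjusted p = 0.00236). Gm10635 fell by 1.19 (SE 0.22), Prss55, a serine protease, by 1.04 (SE 0.18), and Cngb3, a channel subunit of cone cells, by 0.88 (SE 0.19). Ccdc150 fell by 1.49 (SE 0.35), but it was well above background in only 2 of 4 stressed hearts. The non-coding Gm7628 had the largest fall, 1.53 (SE 0.33), but was well above background in 3 controls and 1 stressed heart. Olfr981 fell by 1.23 (SE 0.31) and was well above background in 0 controls and 0 stressed hearts. Taar7f fell by 1.02 (SE 0.19), above background in 4 controls and 3 stressed hearts. Gm7628, Olfr981 and Taar7f were left out of the checks of single hearts and alternatives. At the other end, Cyp2c66 rose by 2.72 ± 0.59, with stressed levels of -0.70, -0.75, -4.07 and -3.88 against control levels of -3.90, -5.21, -6.57 and -4.59. Stressed 1 and 2 were far above the controls and stressed 3 was within their range. Ccdc150 was not called without stressed 1, 2 or 4 or control 1, 2 or 4 (0.0536 to 0.13), Cngb3 without stressed 1 or 4 or control 1, 2 or 4 (0.0512 to 0.0964), and Cyp2c66 without stressed 1 or 2 or control 2 or 3 (0.0607 to 0.108). Olfr1095, an olfactory receptor gene, was well above background in 0 of 4 controls and in 1 of 4 stressed hearts, and was at least 1.08-fold higher.

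Stress hormone readouts showed no call. Of 47 glucocorticoid receptor targets 0 were called by limma in either direction, with 1 higher and 18 lower at an unadjusted p below 0.05, 40 of 47 measured lower and a median of -0.33. Fkbp5, a chaperone that the receptor induces, stood at 2.87, 3.52, 2.24 and 2.25 in controls and 2.23, 2.87, 2.70 and 2.22 in stressed hearts, with overlap and a change of -0.22 ± 0.25 (limma adjusted p = 0.765). Per1, a clock gene with a glucocorticoid response element, stood at 4.42, 4.0, 4.55 and 3.14 against 3.41, 2.70, 3.32 and 3.13 (-0.89 ± 0.29; limma adjusted p = 0.15; 0.0432 without control 4). Ddit4, another such target, was -0.88 ± 0.24 (limma adjusted p = 0.0807). Of 25 circadian clock genes 0 were called, with 0 higher and 4 lower at an unadjusted p below 0.05.

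The immediate early genes, transcription factors that cells make within minutes of a stimulus, were set apart in 1 control. Of 40 tested 0 rose and 1 fell, and the median change was -0.65 (-0.57 with genes below background set at their bounds). Control 3 was the highest of the 8 hearts for 38 of the 40 and at least 1 log2 unit above every other heart for 25. Fos, a factor of AP-1, stood at -2.25, -2.72, 4.04 and -2.19 in controls and -3.41, -3.02, -3.36 and -2.57 in stressed hearts. Fosb, Egr1, Atf3 and Nr4a1 had the same form, with control 3 at 2.13, 6.21, 5.96 and 6.97, while the next highest heart was -1.91, 1.08, 1.62 and 4.03. These genes, apart from Atf3, were chosen after their values were seen. Egr3, the one that fell, was well above background in 2 of 4 controls and in 0 of 4 stressed hearts, which makes it at least 1.4-fold lower (limma adjusted p = 0.0353). Without control 3 it was no longer called (adjusted p = 0.128), 0 of the list were called and the median was -0.18. Its call was also lost without stressed 2, stressed 4, control 1 or control 4 (0.0612 to 0.141), and 2 or 3 members of the list were called lower without control 2 or control 4.

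**Figure D4:**
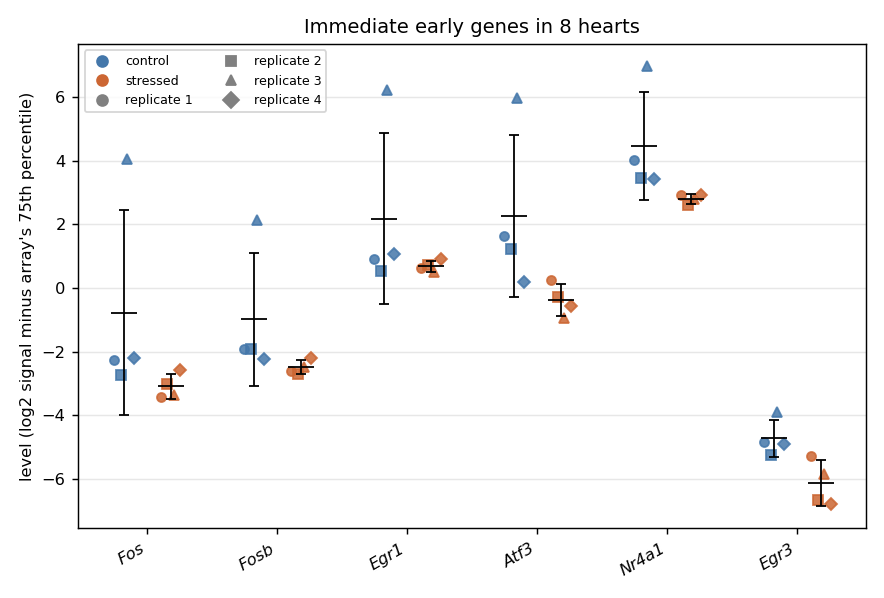
Levels of 6 immediate early genes in each of the 8 hearts, in log2 signal minus the array's 75th percentile; blue points are controls, orange points stressed hearts, marker shapes the replicate numbers, and black bars the mean ± SD. Control 3 (triangle) is the highest of the controls for every gene drawn, by over 4 log2 units in Fos, Fosb, Egr1 and Atf3.

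A few markers of other cell types passed the test. Of 65 macrophage and monocyte markers 3 rose and 1 fell, 50 were measured higher, and 22 were higher and 3 lower at an unadjusted p below 0.05, with a median of 0.23. Ms4a7, a gene of tissue macrophages, had levels of 0.49, 0.49, 0.53 and 0.66 against 2.23, 1.46, 1.47 and 2.86, and rose by 1.46 ± 0.29 (limma adjusted p = 0.0103). Ctsk, a collagen-degrading cathepsin, rose by 1.02 ± 0.18, and Csf1r, the receptor for macrophage colony-stimulating factor, rose by 0.45 ± 0.09 (0.16 to 0.49 over its 3 probes) and lost its call without stressed 4 (0.0724) or control 1 (0.0635). Timd4, a marker of resident macrophages, fell by 0.81 (SE 0.20), but its arms overlapped and it was called without stressed 2 or control 1 only. Of 63 inflammation and acute phase genes 2 rose and 0 fell, with a median of -0.06. Ccl8, a chemokine, rose by 1.55 ± 0.32, and Serpina3n, an acute phase inhibitor, by 1.38 ± 0.25, at -1.58, -1.60, -1.93 and -1.59 against -0.02, -0.47, -0.88 and 0.21. Serping1, the C1 inhibitor, was the only gene called of 42 in complement and coagulation (0.45 ± 0.10). Serping1 was not called without stressed 4 (0.0745), control 3 (0.0593) or control 4 (0.05), and Ccl8 without stressed 1 or 4 or control 2 or 3 (0.0521 to 0.0688). Of 55 interferon response genes 0 were called by limma, with 4 higher and 1 lower at an unadjusted p below 0.05.

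Blood, fat and atrial markers varied between single hearts. Of 24 platelet markers 1 rose (Gp1bb, a subunit of the von Willebrand receptor, 1.16 ± 0.28), with a median of 0.47, 23 measured higher and 12 higher and 0 lower unadjusted, and the list lay at -0.40 to 0.39 in the controls and 0.33 to 0.92 in stressed hearts. Gp1bb was called without stressed 3 or control 2 and not without any other single heart (0.0724 to 0.118). Of 25 red cell markers 0 were called by limma (5 higher and 1 lower unadjusted), with a mean of 1.21 in stressed 1 against 0.02 to 0.53 in the other 3 stressed hearts. The atrial list had a median of -0.31 and 0 of 29 called (0 higher and 5 lower unadjusted). Its mean was -1.20 in stressed 4 and -0.16 to 0.02 in the other stressed hearts. The atrial light chain Myl7 was 5.96, 5.87 and 6.09 in stressed 1 to 3 and 2.59 in stressed 4, and sarcolipin, Sln, was 7.30, 7.15 and 7.22 against 4.1. Adipocyte markers had 0 of 37 called (1 higher and 9 lower unadjusted) and a median of -0.50, with means of -0.94 and -1.43 in stressed 1 and 4 and -0.37 and -0.24 in stressed 2 and 3. Adipoq, the fat cell hormone, was -0.02 to 1.5 in controls and -1.71 to 0.30 in stressed hearts. The part of tissue makeup in the matrix, mitosis or metabolic results was not tested.

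The change after 10 days with 1 day of rest was compared with the change in the other conditions, each against its own controls. Each condition was on a slide of its own, and the T10R1 slide was scanned on a day before the other 3, so slide and condition cannot be told apart in these differences.

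Against 5 days with 1 day of rest, the difference of the stress effects was called higher for 99 genes (0.36%) and lower for 64 (0.233%), with a median of 0.0936 over all genes. Of the 213 genes that rose in T10R1, 143 also rose in T5R1, which is 67.1% of the T10R1 list and 9.82% of the 1456 that rose in T5R1 (5.29% of all genes). Of the 99 that fell, 49 also fell (49.5%, and 2.11% of the 2320 that fell there, 8.43% of all genes). The median rise of the 213 was 0.74 in T10R1 and 0.63 in T5R1, and the difference itself was called for 5 of them. The 213 were chosen by their T10R1 change, a choice that favours the larger median in T10R1. Among the 50 matrix genes 45 also rose in T5R1, where 75 of the 153 rose, and 1 of the 153 differed between the conditions, the binding protein Igfbp7, with a smaller change in T10R1 (-0.84 ± 0.20; limma adjusted p = 0.0453). Col1a1 changed by 2.01 ± 0.30 here and 2.53 in T5R1, and the difference was -0.53 (adjusted p = 0.544 by limma). Myh7 was 2.73 here and 1.05 in T5R1 (limma adjusted p there = 0.0681), a difference of 1.68 that was not called (adjusted p = 0.116). Among genes of cell division, 11 of 70 mitosis genes and 5 of 66 DNA replication genes were called with a smaller change in T10R1. The median of the mitosis list was 0.65 here and 1.78 in T5R1. The filter on dim probes kept a gene that passed in any 1 group, so members of these lists could enter through hearts of T5R1. With no such filter, 8 of all genes were called lower in this difference, in place of 64. How far the counts of 11 and 5 rest on the filter was not tested. Kif22, a spindle motor, changed by 0.62 here and 2.22 in T5R1 (difference -1.59, limma adjusted p = 0.00586). Cdca3, a trigger of mitotic entry, was 0.74 ± 0.28 and 3.20 (difference -2.46, limma adjusted p = 0.0116). Fanci, a Fanconi anaemia DNA repair protein, was above background in 2 hearts of each arm here. It was therefore tested only because hearts of another condition passed the filter on dim probes. Its change here, at levels near background, was 0.13 ± 0.24, against 2.73 in T5R1 (difference -2.60, limma adjusted p = 0.00132). That difference is not independent of the filter. The counts of 99 and 64 were 8 and 8 without stressed 3, 10 and 12 without stressed 4, 11 and 11 without control 4, 15 and 19 without control 2, 74 and 38 without stressed 2, 227 and 94 without control 1, and 169 and 149 without stressed 1.

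Against 10 days with 42 days of rest, the difference was called higher for 617 genes (2.24%) and lower for 522 (1.9%). Of the 213 genes that rose in T10R1 none rose in T10R42 (median change -0.01 there), where 79 of all genes rose (0.287%) and 168 fell (0.611%), so that an overlap of 0 is near that share. The difference was called for 119 of them and for 66 of the 99 that fell. Both sets were chosen by their T10R1 change, which is part of this difference, so these counts are not separate support for it. In the matrix lists 30 of the 153 genes had a more positive change in T10R1 and 0 rose in T10R42, which is near the 0.287% of all genes. Col3a1 was 2.29 ± 0.32 here and -0.13 in T10R42, a difference of 2.41 (limma adjusted p = 0.00929). Myh7 was 2.73 here and 0.47 there (difference 2.26; adjusted p = 0.0255 by limma), and Acta1 was 1.38 and -0.18 (1.56; 0.0294). Of the TCA cycle, amino acid and ketone list 8 of 43 had a more negative change in T10R1, as did 5 of 58 fatty acid oxidation genes. Clpx, a mitochondrial unfoldase, fell by 0.36 here (SE 0.08) and rose by 0.50 after 42 days of rest, and Tmed5, a secretory pathway protein, fell by 0.40 (SE 0.10) and rose by 0.48. The 2 probes of Tmed5 differed here, with changes of -0.40 and -0.08. Clpx was not called here without stressed 1, 3 or 4 or control 1, 2 or 4 (0.069 to 0.139), nor Tmed5 without any 1 heart (0.0672 to 0.15). These were the 2 genes called in opposite directions. The spike-in RNA was 3.86 to 4.86 above the percentile in the T10R42 controls and 3.77 to 4.89 in the T10R42 stressed arrays. Both ranges were higher than any T10R1 array, and the part of the spike-in level in this difference was not tested. The 617 and 522 became 183 and 155 without stressed 1, 234 and 199 without control 2, 226 and 234 without control 4, 418 and 285 without stressed 3, 449 and 301 without stressed 4, and 485 and 299 without control 1.

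T5R10, with 10 days of rest, shared 0 of the 213 and 0 of the 99 with T10R1, but only 6 genes rose (0.0218%) and 15 fell (0.0545%) there. Against the mean of the other 3 conditions the change was more positive for 474 genes (1.72%) and more negative for 422 (1.53%), with a median of 0.0598. The former held 10 matrix genes, including Comp and Mfap4. Neither of these 2 was called as different from T5R1 alone. Mfap4 rose by 1.40 there (difference 0.30, limma adjusted p = 0.649), and Comp changed by 0.07 (difference 1.14, limma adjusted p = 0.0731). The 474 and 422 became 52 and 63 without control 2, 101 and 79 without stressed 4, 101 and 85 without stressed 1, 103 and 87 without stressed 3, 90 and 120 without control 4, and 398 and 202 without control 1.

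**Figure D5:**
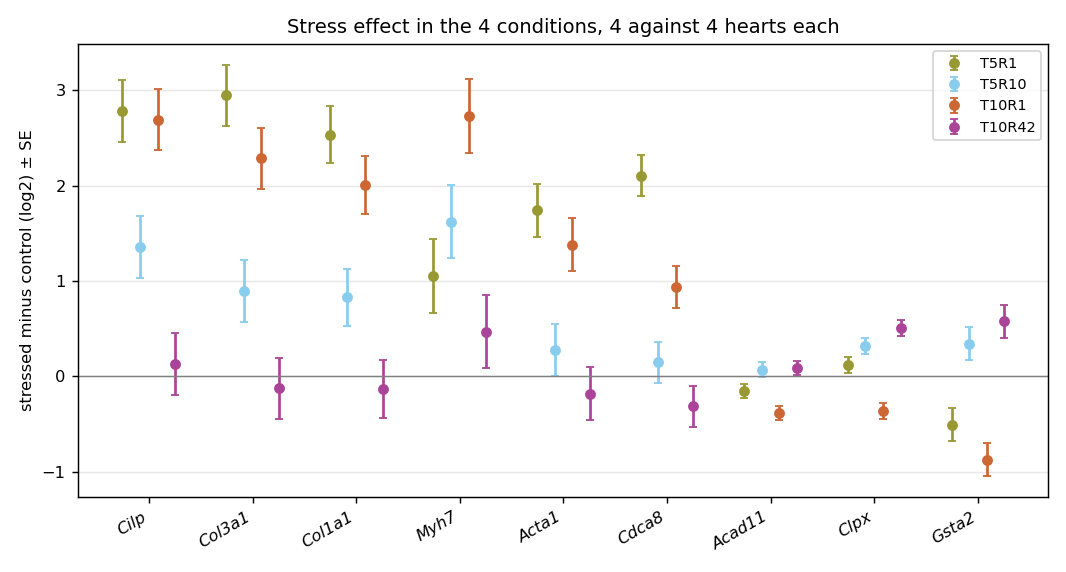
Stressed minus control in log2 units (± SE) for 9 genes in the 4 conditions, each against its own 4 controls, with conditions by colour. The 3 matrix genes and Myh7 lie between -0.13 and 0.47 in T10R42 and between 2.01 and 2.73 in T10R1, and Acad11, Clpx and Gsta2 lie below 0 in T10R1.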

How the data were processed

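The arrays were read with Feature Extraction 10.7.3.1 per the file headers. The deposited scanner files give each spot's intensity (processed signal, mean signal and background) and flags for signal above background. The authors' deposited value table holds log2 values whose processing is not given in the sources used here, and it correlated at 0.9995 or more with log2 mean signal, with column medians of 5.854 to 6.259. Here log2 of the processed signal minus the array's 75th percentile was used, with control spots left out. Probes well above background on at least 3 of 4 arrays of a group were kept (38824 of 55681), the brightest probe stood for a gene, and 27517 genes (18306 with an official symbol) were tested in R 4.3.3 with limma 3.58.1 on 8 group means over 32 arrays, with Benjamini-Hochberg adjustment at 0.05. Gene names came from RefSeq accessions for 26521 probes and from the array design (mm9) otherwise.

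Groups came from the sample titles. The members and gene lists were chosen with earlier results of these data known. Named genes were those fixed by rule: the 12 largest rises and falls, up to 4 called members per list or the 2 with the smallest p, the 5 genes with the smallest p in each direction of a difference, and Fkbp5, Per1, Nppa, Nppb, Myh6, Myh7, Cilp and Col1a1. Fos, Fosb, Egr1, Nr4a1, Foxm1, Birc5, Myl4, Myl7, Sln, Adipoq, Srpx, Adamtsl2 and Igfbp7 were added after their values were seen. The scripts were tested on simulated data. Alternatives covered background correction, normalisation, filters, probe choice, the authors' table, arrays fitted, blocks, array weights and each heart left out. The number of arrays limits the precision. The results of 1 gene are not reported here.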

Additional observations from a re-analysis of the deposited data

Results flagged for a closer look

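Of 238 sets of 4 values screened (named genes and list means, each in the control and in the stressed arm), 21 had a heart far from the other 3, where the gap to the nearest heart over the range of the arm was above Dixon's critical value. Chance gives about 1 in 20. The heart and that ratio are as follows. Control 3 was apart as the highest for the immediate early genes Egr1 (0.902), Fos (0.921) and Fosb (0.925), for Tgfb3 (0.847), and for the means of the immediate early list (0.912) and of the cardiac stress and fetal list (0.971). Control 3 was apart as the lowest for Mrpl50 (0.877), Ppm1k (0.845) and Serpina3n (0.94). Stressed 4 was apart as the lowest for the atrial genes Myl4 (0.893), Myl7 (0.935) and Sln (0.952) and the atrial list mean (0.845), and as the highest for Csf1r (0.947). Stressed 1 was the lowest for Gsta2 (0.858), and stressed 2 the highest for the platelet list mean (0.942). Among controls, the lowest heart was control 2 for Adamts2 (0.863), control 4 for Col8a2 (0.855) and Prss55 (0.968), and control 1 for H2ac11 (0.842) and the mean of the macrophage list (0.872).

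Genes also appear here because their stress effect in T10R1 differed from that in another condition by limma at an adjusted p below 0.05. Against T5R1 the log2 differences were Birc5 (-1.63), Cd7 (1.09), Cdca3 (-2.46), Fanci (-2.6), Kif22 (-1.59), Slc43a2 (-0.83), Tmed5 (-0.62). Against T10R42 there were 55 named genes, 36 with a positive and 19 with a negative difference. Many named genes were chosen because they were called in T10R1 or in such a difference, so the choice itself favoured these counts. The positive were Ace (0.53), Acta1 (1.56), Adamts2 (1.31), Anln (1.01), Ccn5 (0.95), Ccnb2 (1.31), Cd7 (0.95), Cdca8 (1.25), Cilp (2.56), Col1a1 (2.14), Col1a2 (1.57), Col3a1 (2.41), Col6a2 (1.4), Comp (1.35), Csf1r (0.58), Ctsk (0.97), Cyp2c66 (3.1), Ecm1 (0.94), Foxm1 (0.94), Gp1bb (1.85), H2ac11 (0.9), H2ac15 (0.58), H2ac22 (0.74), H2ac4 (1.55), Loxl1 (1.07), Loxl2 (1.33), Ltbp2 (1.94), Mfap4 (1.91), Mfap5 (1.14), Mmp2 (1.4), Ms4a7 (1.41), Myh7 (2.26), Ptn (1.82), Serpina3n (1.21), Serping1 (0.53), Siah3 (0.98). The negative were 2310016G11Rik (-1.36), Acad11 (-0.47), Acat1 (-0.83), Bckdhb (-0.41), Clpx (-0.86), Cyp1a1 (-1.87), Dlat (-0.49), Echs1 (-0.47), Gm10635 (-1.27), Gsta1 (-1.39), Gsta2 (-1.45), Hspa9 (-0.5), Kcna4 (-0.63), Mrpl50 (-0.5), Pfkfb1 (-1.17), Ppm1k (-0.67), Slc43a2 (-0.64), Tiparp (-0.5), Tmed5 (-0.88).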

How the results depend on the processing

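For T10R1 stressed minus control (213 higher, 99 lower), quantile normalisation gave 40 lower, the percentile over probes above background on all arrays 55 lower, no filter on dim probes 138 higher and 43 lower, array weights 611 and 509, and the fit of only the conditions compared 4 and 0. Leaving out each heart gave 68 to 201 higher and 18 to 97 lower. The share of called genes that were higher was 68.3%, against 78.4% with quantile normalisation, 85.3% with the percentile over probes above background, 54.6% with array weights and 100% in the 8-array fit. For the difference from T5R1 (99 higher, 64 lower), the values were 13 higher with quantile normalisation, 49 higher with normexp, 48 and 133 with the authors' table, 4 and 8 with no filter, 175 and 112 with the stricter filter, 396 and 150 with only the conditions compared, and 35 higher with the percentile over averaged probes, which was chosen after seeing the data. Leaving out each heart gave 8 to 227 and 8 to 149. For the difference from T10R42 (617 and 522), the values were 291 and 248 with quantile normalisation, 368 higher with normexp, 332 and 339 with the authors' table, 1354 and 263 with the percentile over probes above background, 249 and 202 with no filter, and 183 to 681 and 155 to 495 without each heart. For the difference from the mean of the others (474 and 422) they were 154 and 218 with quantile normalisation, 300 higher with the authors' table, 1012 and 248 with the percentile over probes above background, 174 and 140 with no filter, and 52 to 561 and 63 to 413 without each heart. No single-condition fit exists for that last difference. The cause was not tested, except that the 8-array fit has fewer samples. With the replicate number as a block, T10R1 had 160 higher and 51 lower, the difference from T5R1 20 and 13, and the last difference 204 lower. Same-numbered hearts correlated at -0.0215 to 0.0604 in their deviations, so the numbers were not taken to pair them, and 2 of 4 controls correlated best with their own number. Of 71 named genes called and put through the 20 alternatives, none was called in all, since the 8-array fit called 0 of them. None of the 71 changed sign. Srpx and Adamtsl2, which the 8-array fit called, were not among the 71, nor were Gm7628, Olfr981 and Taar7f. The median changes of 20 of the 21 lists kept their sign in all alternatives, while that of the cardiac stress list turned in 6 (-0.09 to 0.0559). Dim probes, such as those of Cthrc1, Nuf2 and Egr3, have only bounds.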
